A study of Mus musculus with 4 samples.

Results

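NRF2 target genes and the enzymes that remove peroxides and superoxide were examined in 4T1 cells. 4T1 is an established line from a murine mammary tumour and serves as a model of metastatic triple-negative breast cancer. The set was a fixed list of 31 genes made up of the regulators, their classical targets and general antioxidant enzymes. A gene counted as measured where a row of the deposited table carried its symbol alone, and 26 of the 31 were measured, out of 30142 genes in all. Each of the 26 had 1 such row. The rows of Gclm, Prdx1 and Tkt also carried another symbol, Prdx6 and G6pdx had no row listed under their symbol, and these 5 genes were not analysed here.

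Total RNA was hybridised to 4 whole-transcript arrays. NC was 4T1 carrying a scramble sequence (2 arrays), and shMCT-1 was 4T1 in which MCT-1 was to be silenced, grown out as clones under puromycin (2 arrays). Both groups are the same line, and the design text calls the replicates biological and independent. The labels used here do not say whether a replicate was 1 clone or a mixture, whether the control was also kept in puromycin, or which hairpin was used. Values are log2 expression, so a difference of 1 is a doubling, and all differences are shMCT-1 minus NC.

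NRF2, encoded by Nfe2l2, is a transcription factor that is made continuously and destroyed as long as the adaptor KEAP1 hands it to a CUL3 ubiquitin ligase. Oxidants and electrophiles modify cysteines of KEAP1, after which NRF2 accumulates, pairs with small MAF proteins and binds antioxidant response elements (AREs). Its targets make glutathione, keep thioredoxin reduced, supply NADPH and conjugate or reduce reactive compounds. Since much of this control acts on the protein, the message of Nfe2l2 need not follow the activity of NRF2. In mammary and other carcinomas the pathway is known for protecting cells from oxidants and from some drugs.

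The targeted transcript did not separate the groups. Mcts1, which encodes MCT-1, was at 7.86 and 8.05 in NC, replicate 1 first here and throughout, and at 7.81 and 7.89 in the other group, a difference of -0.10 (95% interval -0.42 to 0.22, adjusted p = 0.945, limma), so the second group is called the arrays labelled shMCT-1. NC replicate 1 stood apart from the other 3 arrays in interferon-stimulated genes: all 10 measured of 12 listed were highest there, by a median of 3.67 log2 units over the mean of the other 3. Usp18 had the largest difference of that list, with 12.30 on NC replicate 1 and 6.91, 7.33 and 5.72 on the other arrays. Of the 8 epithelial markers listed, Krt8, Krt18, Epcam, Cdh1, Cldn4, Krt7 and Krt19 were above 12 on every array. Cldn7 was dimmer, at 5.35 and 5.15 in NC and at 6.925 and 6.88 in the arrays labelled shMCT-1. Markers of lymphocytes (7 of 8 listed measured), fibroblasts (6 of 7) and endothelium (6 of 6) ran from 2.80 to 4.24, near the median row of 3.68. Their largest differences were 0.18 for Cd3g, -0.18 for Lum and -0.43 for Cdh5, the last with an unadjusted p under 0.05 and an adjusted p of 0.882 in limma. Of the epithelial markers, Cldn7 (1.66) and Krt19 (-1.14) also had an unadjusted p under 0.05, as did 5.59% of all genes. Their adjusted p-values were 0.669 and 0.882 in limma.

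Across the 26 genes no shift in 1 direction was seen. The mean of the arrays labelled shMCT-1 was higher for 13 genes and lower for 13, against 54.2% of all genes higher, and the median difference was -0.010, against 0.014 over all genes. In limma 0 of 26 passed an adjusted p of 0.05, as did 0% of all genes, and the lowest adjusted p among the 26 was 0.882. At an unadjusted p under 0.05 there were 2 of 26, against 5.59% of all genes and 7.6% of genes brighter than the median row, where 25 of the 26 lay. They were Prdx3, higher as were 2.32% of all genes, and Osgin1, lower as were 3.28%. The 2 arrays of each group did not overlap for 9 of 26 genes, against 34.9% of all genes and 37.5% of the brighter ones. Of the 9, 5 were higher (19% of all genes) and 4 lower (16%). The difference reached 1.5-fold for Nqo1 and Hmox1, 2 of 26, against 2.54% of all and 3.96% of the brighter genes. The count of 9 was near its background share, and counts of 2 are too small to set apart from theirs. With 2 arrays against 2, an exact two-sided permutation test of a single gene cannot go below p = 0.333.

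The count of higher genes depended on NC replicate 1. Without that array 18 of the 26 were higher and 8 lower, against 52.9% of all genes and 49.9% of the brighter genes higher, and the median difference was 0.074, against 0.010 over all genes. Nqo1, Srxn1 and Nfe2l2 then had an unadjusted p under 0.05 (3 of 26, against 2.51% of all genes), Prdx3 and Osgin1 did not, and 0 of 26 passed the adjusted threshold in limma. At least 1.5-fold apart were then Nqo1 and Gstm1, 2 of 26, against 1.51% of all genes and 2.19% of the brighter ones. In that comparison NC is a single array, assumed to vary like the other group. Without NC replicate 2 the median was -0.077, against 0.016 over all genes. Then 4 of 26 had an unadjusted p under 0.05, against 9.19% of all genes, of which Prdx3 was higher and Hmox1, Cat and Gsta4 were lower.

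**Figure D1:**
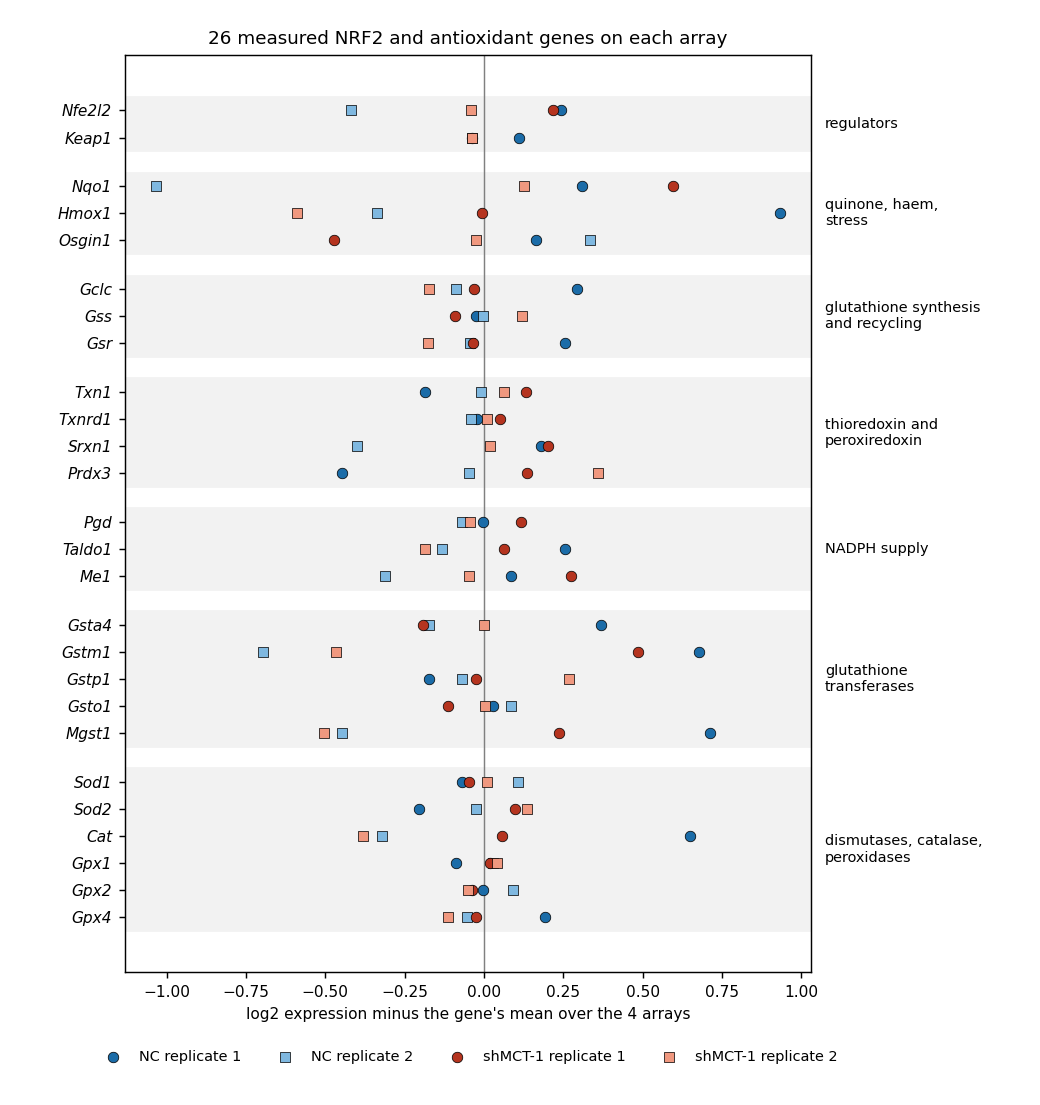
Each row is 1 of the 26 measured genes, grouped by role, and each point is 1 array, placed on the x axis by its log2 expression minus the gene's mean over the 4 arrays; dark circles are replicate 1, light squares replicate 2, blue NC and red shMCT-1. The widest rows are Nqo1, Hmox1, Gstm1, Mgst1 and Cat, where the points do not sort by group; in Keap1 the points of 3 arrays at 7.49 lie on top of each other.

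The regulators came first. Nfe2l2 (gene ID 18024) was at 9.12 and 8.46 in NC and at 9.09 and 8.84 in the arrays labelled shMCT-1. NC replicate 2 was the low array and the groups overlapped, with a difference of 0.18 (SE 0.252, adjusted p = 0.960, limma) that was 0.51 without NC replicate 1 and -0.15 without NC replicate 2. Keap1 (gene ID 50868), the repressor, was at 7.64 and 7.49 in NC and at 7.49 on both arrays labelled shMCT-1. NC replicate 1 was above the other 3 arrays by 0.15, and the difference of -0.075 (SE 0.112) was -0.0011 without it. Keap1 counts among the 9 genes without overlap, although NC replicate 2 and the arrays labelled shMCT-1 were practically tied.

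The 300 bases around the start site, 250 before and 50 after, are shown for the regulator Nfe2l2, for Srxn1 and Me1, which like it were lowest on NC replicate 2, and for Osgin1, whose groups did not overlap. They are from RefSeq on GRCm38.p6, on the strand of each gene, as given in the table of promoter windows: Nfe2l2 at chr2:75704614-75704913 (minus strand), Srxn1 at chr2:152105274-152105573 (plus), Me1 at chr9:86695865-86696164 (minus, 1 of 2 windows listed) and Osgin1 at chr8:119436897-119437196 (plus). Capitals mark matches on either strand to the ARE core TGACNNNGC or to the AP-1 element TGAGTCA, which overlap in Me1. Other measured genes also met these descriptions, such as Nqo1, lowest on NC replicate 2, and Prdx3, without overlap. All 4 windows shown hold a match, so they do not stand for the other windows.
Nfe2l2: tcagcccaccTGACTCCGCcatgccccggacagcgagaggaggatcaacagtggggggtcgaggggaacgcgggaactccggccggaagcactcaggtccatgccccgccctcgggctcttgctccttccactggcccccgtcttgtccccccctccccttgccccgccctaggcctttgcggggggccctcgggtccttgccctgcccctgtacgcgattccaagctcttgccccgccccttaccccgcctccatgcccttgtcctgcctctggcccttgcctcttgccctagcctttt
Srxn1: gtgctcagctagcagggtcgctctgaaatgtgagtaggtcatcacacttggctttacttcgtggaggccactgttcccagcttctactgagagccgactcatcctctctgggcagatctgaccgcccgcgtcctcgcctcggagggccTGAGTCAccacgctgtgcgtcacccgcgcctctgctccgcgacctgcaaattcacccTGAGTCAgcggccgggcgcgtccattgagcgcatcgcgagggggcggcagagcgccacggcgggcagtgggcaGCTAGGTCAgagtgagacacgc
Me1: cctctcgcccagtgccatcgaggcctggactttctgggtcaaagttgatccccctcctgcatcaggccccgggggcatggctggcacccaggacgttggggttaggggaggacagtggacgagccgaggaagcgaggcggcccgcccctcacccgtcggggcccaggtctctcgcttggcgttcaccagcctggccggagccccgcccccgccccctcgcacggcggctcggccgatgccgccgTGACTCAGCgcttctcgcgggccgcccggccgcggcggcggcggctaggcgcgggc
Osgin1: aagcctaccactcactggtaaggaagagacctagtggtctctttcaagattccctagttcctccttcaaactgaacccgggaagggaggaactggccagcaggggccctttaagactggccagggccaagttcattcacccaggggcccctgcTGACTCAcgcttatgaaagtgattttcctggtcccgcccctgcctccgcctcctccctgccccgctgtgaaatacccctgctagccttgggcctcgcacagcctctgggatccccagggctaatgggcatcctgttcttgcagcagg

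The ARE core was found from base -240 of the Nfe2l2 window, from base 29 of the Srxn1 window and from base -6 of the Me1 window, counted from the start site, where the Me1 match, TGACTCAGC, holds the AP-1 element on the other strand. AP-1 elements lay from bases -102 and -45 of Srxn1 and from base -97 of Osgin1. Of the 26 measured genes 22 had a window, 31 windows in all, and 7 of the 31 windows, of 7 genes, held an ARE core and 4 of the 31, of 4 genes, an AP-1 element. Among all 32851 windows, 12.4% held the ARE core and 5.2% the AP-1 element. The other genes with an ARE core were Mgst1, Sod1, Pgd and Txnrd1, and the fourth gene with an AP-1 element was Gstp1. A match is a description of these letters only, and the windows of Hmox1, Gclc, Gsr and Gsta4 were not used here.

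Among the stress-induced targets, Nqo1 and Hmox1 differed most, in opposite directions. Nqo1 (gene ID 18104), a quinone reductase and the standard readout of NRF2, was at 6.96 and 5.62 in NC and at 7.25 and 6.78 in the arrays labelled shMCT-1. NC replicate 2 was the low array, the other 3 lay within 0.47 of each other, and the groups overlapped. The difference was 0.72, or 1.65-fold higher (SE 0.475, 95% interval -0.52 to 1.97, adjusted p = 0.906, limma). Without NC replicate 1 it was 1.40 (unadjusted p = 0.00281 in limma, not past the adjusted threshold), and without NC replicate 2 it was 0.051.

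Hmox1 (gene ID 15368), the haem oxygenase that is also held down by BACH1, was at 11.50 and 10.23 in NC and at 10.56 and 9.98 in the arrays labelled shMCT-1. NC replicate 1 was 1.24 above the mean of the other 3, the 1 member of 26 with a gap over 1, against 1.5% of all genes. The groups overlapped, and the difference of -0.60 (SE 0.466, adjusted p = 0.913, limma) was 0.039 without NC replicate 1 and -1.23 without NC replicate 2. NC replicate 1 was also the array that stood apart in interferon-stimulated genes, and a link of Hmox1 to these was not tested.

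Osgin1 (gene ID 71839), an oxidative stress-induced growth inhibitor, had groups that did not overlap. It was at 6.73 and 6.89 in NC and at 6.09 and 6.54 in the arrays labelled shMCT-1, and both of the latter were below both NC arrays. The difference was -0.50, or 1.41-fold lower (SE 0.186, 95% interval -0.98 to -0.011, unadjusted p = 0.0468, adjusted p = 0.882, limma). It was -0.58 without NC replicate 1 and ran from -0.72 to -0.27 with each array left out in turn, so the sign held in all 4.

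Glutathione synthesis and recycling differed little between the groups. Gclc, the catalytic subunit of the rate-limiting ligase, was at 10.88 and 10.50 in NC and at 10.56 and 10.41 in the arrays labelled shMCT-1. Gsr, which reduces oxidised glutathione, was at 14.29 and 13.99 against 14.00 and 13.86. In both genes NC replicate 1 was the high array, and the differences of -0.20 and -0.21 were -0.015 and -0.060 without it. Gss, which adds the last residue of glutathione, ran from 6.62 to 6.83 over the 4 arrays with a difference of 0.027.

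Of the roles in the fixed list, only thioredoxin and peroxiredoxin had a higher mean for every measured member in the arrays labelled shMCT-1. These were 4 of 4 genes, with a median difference of 0.21 (0.20 without NC replicate 1), and in 3 of them the groups did not overlap. Over all genes 54.2% were higher, 34.9% did not overlap, and 19% were higher without overlap, as were these 3. A set of 4 genes is too small to set apart from those shares. The lowest adjusted p of the 4 was 0.882. Prdx3 was the only peroxiredoxin among the 4. Outside the fixed list, the peroxiredoxins Prdx2 and Prdx4 were lower without overlap, with differences of -0.32 and -0.092. Txn2, Txnrd2 and Txnrd3, also outside it, were higher, with differences of 0.57, 0.054 and 0.41, of which only Txnrd3 was without overlap. Prdx3 (gene ID 11757), the peroxiredoxin of mitochondria, was at 13.41 and 13.81 in NC and at 13.99 and 14.22 in the arrays labelled shMCT-1. Its difference was 0.50, or 1.41-fold higher (SE 0.181, 95% interval 0.021 to 0.97, unadjusted p = 0.0437, adjusted p = 0.882, limma). It was 0.29 without NC replicate 1, which was the low array, and 0.70 without NC replicate 2.

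Txn1, the cytosolic thioredoxin, was at 15.75 and 15.92 in NC and at 16.07 and 16.00 in the arrays labelled shMCT-1, a difference of 0.20 (SE 0.119). Txnrd1, the selenoprotein that reduces it, was at 12.89 and 12.87 against 12.96 and 12.92, a difference of 0.061 (SE 0.103). The groups did not overlap in either gene, and the step in Txnrd1 was smaller than its standard error. Srxn1, which repairs over-oxidised peroxiredoxins, was at 8.38 and 7.79 in NC and at 8.40 and 8.21 in the arrays labelled shMCT-1. Like Nfe2l2 it was low on NC replicate 2, and its difference of 0.22 was 0.51 without NC replicate 1 and turned to -0.072 without NC replicate 2.

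Of the enzymes that supply NADPH, Me1, the cytosolic malic enzyme, was at 10.83 and 10.43 in NC and at 11.02 and 10.69 in the arrays labelled shMCT-1. The groups overlapped, and the difference was 0.23 (SE 0.195), 0.43 without NC replicate 1 and 0.029 without NC replicate 2. Pgd, the 6-phosphogluconate dehydrogenase of the pentose phosphate pathway, had a difference of 0.072 and Taldo1, its transaldolase, one of -0.12. In all 3, replicate 1 was above replicate 2 in both groups.

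**Figure D2:**
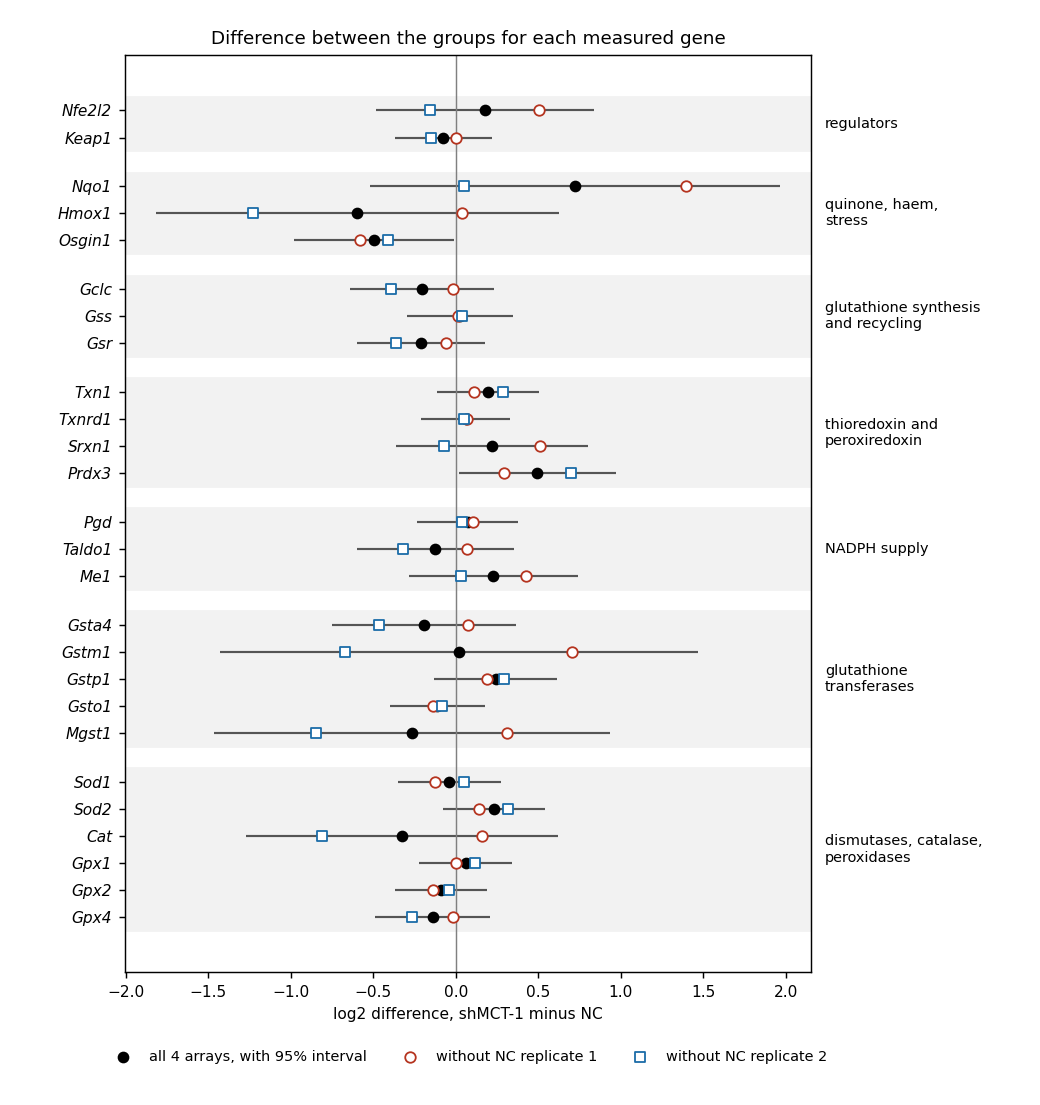
Each row is 1 measured gene; the filled circle is its log2 difference, shMCT-1 minus NC, from all 4 arrays with its 95% interval from limma, the open red circle the value without NC replicate 1 and the open blue square that without NC replicate 2. Only the intervals of Prdx3 and Osgin1 leave out 0, and the open symbols lie on opposite sides of 0 for Nfe2l2, Hmox1, Gstm1, Mgst1 and Cat among others.

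Of the 5 glutathione transferases, Gstm1 and Mgst1 lay further apart between the replicates of each group than between the groups. Gstm1 was at 6.40 and 5.02 in NC and at 6.20 and 5.25 in the arrays labelled shMCT-1. Both replicate 1 arrays were about a log2 unit above both replicate 2 arrays, and the difference between the groups was 0.018 (SE 0.553), 0.70 without NC replicate 1 and -0.67 without NC replicate 2. The mu-class transferases are close relatives whose probes may share signal, so the value of each is uncertain.

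Mgst1, a membrane-bound transferase, was also higher on both replicate 1 arrays, with 6.54 and 5.38 in NC and 6.07 and 5.33 in the arrays labelled shMCT-1. Its difference of -0.27 (SE 0.459) was 0.31 without NC replicate 1. Gsta4, which conjugates the lipid peroxidation product hydroxynonenal, was at 8.94 and 8.40 in NC and at 8.38 and 8.57 in the arrays labelled shMCT-1, a difference of -0.19 that was 0.077 without NC replicate 1.

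Gstp1, the pi-class transferase, and Gsto1, the omega-class one, had groups that did not overlap, in opposite directions and with small steps. Gstp1 was at 14.74 and 14.84 in NC and at 14.88 and 15.18 in the arrays labelled shMCT-1, a difference of 0.24 (SE 0.143). Gsto1 was at 11.02 and 11.07 against 10.88 and 10.99, a difference of -0.11 (SE 0.110).

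The dismutases, catalase and the glutathione peroxidases had differences from -0.33 to 0.23. Cat, the peroxisomal catalase, was at 13.27 and 12.30 in NC and at 12.68 and 12.24 in the arrays labelled shMCT-1. NC replicate 1 was the high array and the groups overlapped, so that the difference of -0.33 (SE 0.362) was 0.16 without it and -0.81 without NC replicate 2. Sod2, the mitochondrial superoxide dismutase, was at 6.45 and 6.63 against 6.76 and 6.79, with groups that did not overlap and a difference of 0.23 (SE 0.118, adjusted p = 0.894, limma).

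Sod1, the cytosolic dismutase, ran from 13.46 to 13.64 over the 4 arrays (difference -0.038). Gpx1, the cytosolic selenoprotein peroxidase, ran from 16.23 to 16.35 (0.060), and Gpx4, which reduces lipid peroxides in membranes, from 6.40 to 6.71 (-0.14, and -0.017 without NC replicate 1). Gpx2, the gastrointestinal peroxidase, was the 1 measured member below the median row, at 3.30 and 3.40 in NC and 3.27 and 3.26 in the arrays labelled shMCT-1. Its groups did not overlap, but the step was -0.089 at a level where signal over background is not known.

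The widest spread among these genes lay between the replicates. Replicate 1 was above replicate 2 in both groups for 14 of 26 genes, against 31.9% of all genes and 29.7% of those brighter than the median row. NC replicate 1 exceeded NC replicate 2 by 1.34 in Nqo1, 1.37 in Gstm1, 1.27 in Hmox1, 1.16 in Mgst1 and 0.97 in Cat. In the same 5 genes, in that order, the gap between the arrays labelled shMCT-1 was 0.47, 0.95, 0.585, 0.74 and 0.44, replicate 1 again being higher. These 5 were named after their values were seen. NC replicate 1 was the highest of the 4 arrays for 11 of 26 genes, against 26.3% of all genes and 28% of the brighter ones. The labels do not say what a replicate number stands for.

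Other NRF2 targets outside the list showed that spread too. Of 22 listed 20 were measured, and in 13 of the 20 replicate 1 was above replicate 2 in both groups. The share was 31.9% of all genes and 29.7% of those brighter than the median row. The order was not particular to NRF2 targets. All 10 measured interferon-stimulated genes had it, as did 9 of 16 other glutathione transferases and 9 of 15 other pentose phosphate and NADPH enzymes. So did 6 of 9 macrophage and 5 of 8 epithelial markers. Lower counts were 5 of 18 other redoxins and antioxidant enzymes and 4 of 13 glutathione breakdown and transport genes. Slc7a11, the cystine importer that feeds glutathione synthesis, was at 8.66 and 6.73 in NC and at 8.37 and 7.26 in the arrays labelled shMCT-1. Its difference of 0.12 was 1.08 without NC replicate 1 and -0.85 without NC replicate 2. Ephx1, the microsomal epoxide hydrolase, was at 7.39 and 5.64 in NC and at 6.35 and 5.36 in the arrays labelled shMCT-1. In both genes the replicates of a group lay further apart than the group means.

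**Figure D3:**
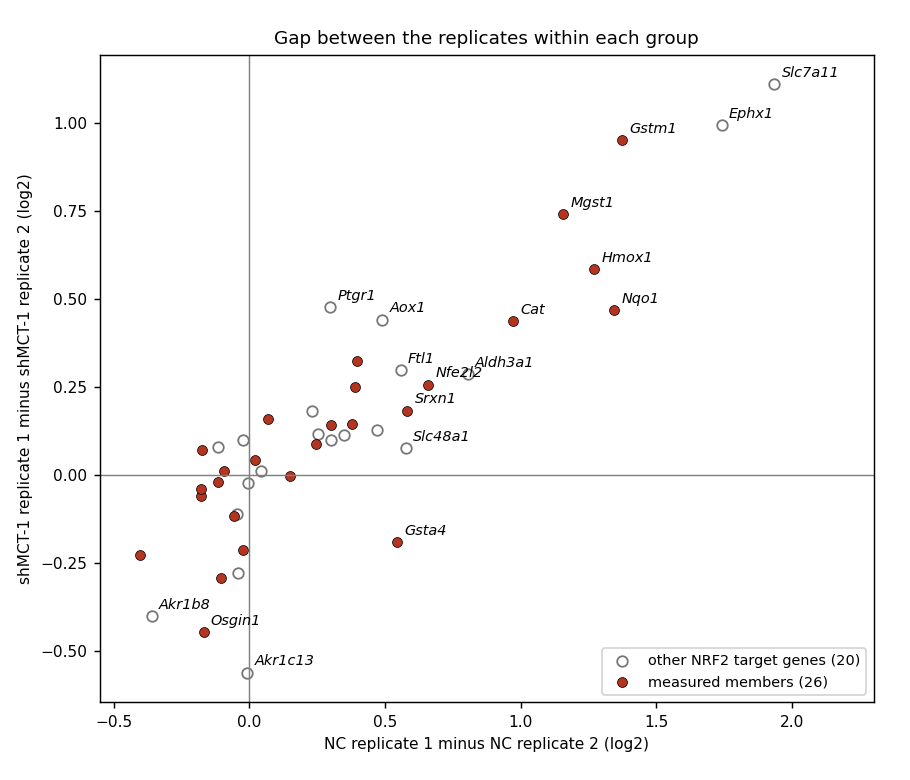
Each point is 1 gene, with the log2 gap between NC replicates 1 and 2 on the x axis and that between shMCT-1 replicates 1 and 2 on the y axis; filled points are the 26 measured members and open points 20 other NRF2 targets. Slc7a11, Ephx1, Gstm1, Mgst1, Hmox1, Nqo1 and Cat lie at the upper right, high on the replicate 1 arrays of both groups.

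Between the groups, 9 of these 20 targets had a higher mean and 11 a lower one, with a median difference of -0.046, against 54.2% of all genes higher. At an unadjusted p under 0.05 in limma there was 1 of 20, against 5.59% of all genes. Akr1c13, an aldo-keto reductase, was at 5.60 and 5.61 in NC and at 4.40 and 4.96 in the arrays labelled shMCT-1. Both of the latter were below both NC arrays, with a difference of -0.93, or 1.91-fold lower (SE 0.209, unadjusted p = 0.00765, adjusted p = 0.882, limma), and -0.94 without NC replicate 1. The aldo-keto reductases of its cluster are close relatives, so its separate value is uncertain.

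The NRF2 degradation machinery, partners and repressors had 3 of 11 measured members (12 listed) higher and 8 lower, with a median of -0.11. At an unadjusted p under 0.05 in limma there were 0 of 11, against 5.59% of all genes. The largest difference was that of Nfe2l1, the NRF2 relative that drives proteasome genes, at 12.78 and 11.50 in NC and 11.65 and 11.21 in the arrays labelled shMCT-1. It was -0.71 with all arrays and -0.068 without NC replicate 1.

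Of 20 other redoxins and antioxidant enzymes 18 were measured, 8 higher and 10 lower (median -0.040). At an unadjusted p under 0.05 in limma there was 1 of 18, against 5.59% of all genes. Glrx, the cytosolic glutaredoxin that removes glutathione from protein thiols, was at 10.49 and 10.53 in NC and at 10.05 and 9.96 in the arrays labelled shMCT-1. The replicates of each group lay within 0.089 of each other, and the difference of -0.51, or 1.42-fold lower (SE 0.106, unadjusted p = 0.00585, adjusted p = 0.882, limma), was -0.53 without NC replicate 1.

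Among 18 other glutathione transferases 16 were measured, 9 higher and 7 lower (median 0.034). In limma 3 of 16 had an unadjusted p under 0.05, against 5.59% of all genes and 7.6% of genes brighter than the median row. The count of 3 was not tested against those shares. Gstk1, of mitochondria and peroxisomes, was higher (0.43), while Gstz1, the maleylacetoacetate isomerase (-0.42), and Gstm5, a mu-class transferase (-0.62), were lower. Gstk1, at 3.36 and 3.27 in NC and 3.76 and 3.74 in the arrays labelled shMCT-1, was close to the median row. Without NC replicate 1 these 3 differences were 0.48, -0.37 and -0.38.

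Of 16 other pentose phosphate and NADPH enzymes 15 were measured, 9 higher and 6 lower (median 0.033). Idh2, the mitochondrial isocitrate dehydrogenase that makes NADPH, was the 1 of 15 with an unadjusted p under 0.05, against 5.59% of all genes. It was at 10.70 and 10.26 in NC and at 9.90 and 9.80 in the arrays labelled shMCT-1, a difference of -0.63, or 1.55-fold lower (SE 0.179, unadjusted p = 0.0186, adjusted p = 0.882, limma), and -0.41 without NC replicate 1.

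Glutathione breakdown and precursor genes had 13 of 15 measured, 9 higher and 4 lower (median 0.016). Cth, the cystathionine lyase that makes cysteine from methionine-derived sulfur, was the 1 of 13 with an unadjusted p under 0.05, against 5.59% of all genes. It was at 6.76 and 6.75 in NC and at 7.67 and 7.64 in the arrays labelled shMCT-1. The replicates of each group differed by at most 0.024, against a difference between the groups of 0.90, or 1.86-fold higher (SE 0.102, unadjusted p = 0.000419, adjusted p = 0.882, limma), and the value stayed between 0.89 and 0.91 with each array left out. Chac1, which degrades glutathione, was at 8.30 and 6.14 in NC and at 7.63 and 7.34 in the arrays labelled shMCT-1, with groups that overlapped.

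**Figure D4:**
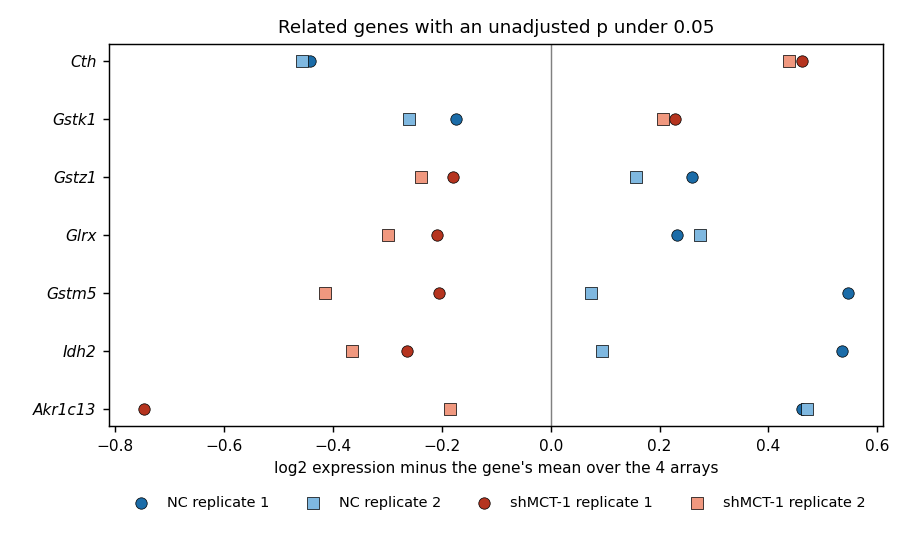
Each row is a gene of the related lists, cell type markers left out, with an unadjusted p under 0.05 in limma. Each point is 1 array, placed by its log2 expression minus the gene's mean over the 4 arrays, with NC in blue and shMCT-1 in red. In all 7 genes, which were picked by that p, the points sort by group. Cth and Gstk1 were higher and Gstz1, Glrx, Gstm5, Idh2 and Akr1c13 lower in the arrays labelled shMCT-1, and in none did the adjusted p pass 0.05.

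Of 9 macrophage markers, all measured, Cd68 and Csf1r were highest on NC replicate 1 by more than 1 log2 unit over the mean of the other 3 arrays. Cd68 was at 10.15 on NC replicate 1 and at 8.26, 8.55 and 9.00 on the other arrays, NC first, and Csf1r at 6.07 against 4.61, 5.27 and 4.47. The other 7, among them Adgre1 and Ptprc, ran from 2.55 to 4.75. On NC replicate 1 these 7 lay from -0.19 (Mrc1) to 0.090 (Marco) off the mean of the other 3. The summed log2 level of the 9 was 40.7 and 37.2 in NC and 38.8 and 37.8 in the arrays labelled shMCT-1. Their part in the high Hmox1 and Cat values of NC replicate 1 was not tested, and in bulk RNA more cells of a type and more RNA per cell cannot be told apart.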

How the data were processed

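The deposited values are log2 expression that the authors made with Expression Console (Affymetrix) by RMA, per the submitters' processing notes. No version, option or genome build was found in the labels, and RMA can compress differences of dim and very bright rows. Groups came from the sample titles. Of 65956 rows, 30604 had 1 gene symbol, 2146 several and 33206 none. Symbols of 827 rows were updated through gene IDs (GRCm38.p6), and the brightest row stood for each gene. Members and gene lists were chosen with earlier results of these data known.

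All rows were tested with lmFit and eBayes of limma 3.58.1 (R 4.3.3), two-sided, with Benjamini-Hochberg adjustment over all rows at 0.05, after the code was tested on simulated data. Each p-value rests on the spread among these 4 arrays, which may be partly technical, and their number limits the precision. Values per array were given for members whose groups did not overlap, that differed 1.5-fold, had an unadjusted p under 0.05 or lay over 1 log2 unit off on NC replicate 1, and for others that show the spread. From the other lists the rule named up to 4 genes with an unadjusted p under 0.05, or else the largest difference. Further genes there were picked with their values in view: Slc7a11, Ephx1, Chac1, Bach1, Sqstm1, Cd68, Prdx2, Prdx4, Txnrd3 and the mitochondrial genes. Alternatives tried were a variance trend, robust or no moderation, a filter on dim rows, 2 normalisations, a block for the replicate number, averaging rows of 1 gene, and dropping each array in turn.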

Additional observations from a re-analysis of the deposited data

How the results depend on the processing

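In every alternative 0 of the 26 genes passed the adjusted threshold in limma. The median difference stayed between -0.077 and 0.074. The count at an unadjusted p under 0.05, which was 2, was 1 with a variance trend, after a further quantile normalisation and with each array centred on its median, and 0 without moderation and among rows brighter than the median row. With 1 array left out, 1 group rested on a single array. That count is given above only for the fits without NC replicate 1 and without NC replicate 2. The count of genes whose groups did not overlap, 9, was 15 to 21 with 1 array left out. Fewer arrays overlap more rarely by construction, and the share of all genes without overlap was not computed for those settings. Whether 15 to 21 of 26 lay above or below that share is therefore not known. The count of genes at least 1.5-fold apart, 2, ran from 2 to 5 with 1 array left out. With the replicate number as a block 4 genes had an unadjusted p under 0.05 (Nqo1, Hmox1, Osgin1 and Prdx3), against 11.5% of all genes and 16.8% of those brighter than the median row, and 0 an adjusted one. Deviations of same-numbered arrays from their group means correlated at r = 0.419 over all rows, but with 2 arrays a group and no label on what a number marks, the pairing is not established.

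Leaving out 1 array turned the sign for 11 of 26 genes, from -0.15 to 0.51 for Nfe2l2, -1.23 to 0.039 for Hmox1, -0.079 to 0.13 for Gss, -0.072 to 0.51 for Srxn1, -0.0081 to 0.15 for Pgd, -0.32 to 0.071 for Taldo1, -0.47 to 0.077 for Gsta4, -0.67 to 0.70 for Gstm1, -0.84 to 0.31 for Mgst1, -0.13 to 0.051 for Sod1 and -0.81 to 0.16 for Cat. The sign also turned for Gpx1 after quantile normalisation (-0.040) and for Gstm1 after median centring (-0.0079). The cause was not tested. The mean over rows changed nothing, since each gene had 1 row.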

Other observations

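Some antioxidant genes of mitochondria, picked here after their values were seen, went both ways. Beside Prdx3 (0.50) and Sod2 (0.23), Txn2, the mitochondrial thioredoxin that reduces Prdx3, was at 7.67 and 8.17 in NC and at 8.12 and 8.86 in the arrays labelled shMCT-1, a difference of 0.57 (SE 0.307, adjusted p = 0.897, limma) that was 0.32 without NC replicate 1. Txnrd2, which reduces Txn2, had a difference of 0.054 while the mitochondrial glutaredoxins Glrx2 and Glrx5 had differences of 0.10 and -0.15. Beside Idh2 (-0.63), Nnt, the transhydrogenase that makes NADPH at the inner membrane, was at 8.79 and 8.42 in NC and at 8.44 and 8.03 in the arrays labelled shMCT-1 (-0.37, and -0.18 without NC replicate 1), and Msrb2, a methionine sulfoxide reductase, was at -0.16.

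Bach1, the repressor of Hmox1, was at 9.18 and 8.92 in NC and at 8.79 and 8.53 in the arrays labelled shMCT-1, with both of the latter lower (-0.39, SE 0.156, adjusted p = 0.882, limma) and -0.255 without NC replicate 1. Sqstm1, which binds KEAP1, was at 14.42 and 13.62 against 13.59 and 13.34. Its groups did not overlap, but shMCT-1 replicate 1 minus NC replicate 2 was only -0.033. The difference of -0.56 was -0.15 without NC replicate 1. Of the 11 measured genes in the list of both, 4 were lower without overlap (16% of all genes) and 2 higher (19%).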
